A study of Mus musculus with 20 samples.

Results

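The genes of cholesterol and fatty acid synthesis were followed in mouse preimplantation embryos in which P300 had been targeted by siRNA. The set holds 30 genes, chosen by name from the 25208 gene rows of the raw count table: 7 of the mevalonate steps, 11 of the squalene and sterol steps, 6 that control the pathway or carry sterol, and 6 of fatty acid synthesis. All 30 were found and all 30 passed the low-count filter that left 16603 genes for testing.

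The 20 libraries fall into 10 groups of 2, and each group is one stage and condition. P300 siRNA embryos, with the genotype given as P300 knockdown, and control embryos, with the genotype given as WT, were sampled at the late 2-cell stage, as 4-cell embryos, and early and late in the 8-cell stage. At the late 8-cell stage a further pair of groups carried P300 siRNA together with I1394G or with NaCr, and the labels call both a rescue of the knockdown. The labels spell out neither name; the usual readings are a point mutant of p300 for I1394G and sodium crotonate, a source of crotonyl-CoA, for NaCr. All embryos were cultured from the zygote in KSOM medium, and total RNA was turned into libraries by Smart-seq2, which amplifies full-length cDNA from very little RNA. Strain, embryos per library, the siRNA sequence and what the control embryos received are not given in the sources used here. Nothing says that the 2 libraries of a group came from separate embryo collections, so the p-values measure the spread between these libraries, which may be technical. All late 2-cell libraries, with siRNA and control alike, have record numbers in a separate run from the other libraries. The labels do not say why, and this cannot be told apart from the late 2-cell stage, also in tests across stages.

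Cells make cholesterol from acetyl-CoA. The mevalonate steps build the isoprenoid units, squalene synthase joins them, and a chain of enzymes closes and trims the ring into cholesterol. When membrane sterol is low, SCAP carries the SREBP factors to the Golgi, where they are cut and freed to raise transcription of this pathway; INSIG proteins hold SCAP back when sterol is high. Fatty acid synthesis starts from the same acetyl-CoA, under the same family of factors, and its products are elongated and desaturated. P300, encoded by Ep300, is a lysine acetyltransferase that acts on histones and other proteins and also uses other acyl-CoAs such as crotonyl-CoA.

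Deposited counts per library ranged from 3.20 M (M, mega) in P300 siRNA late 8-cell replicate 1 to 24.8 M. The log2 CPM (counts per M counts) of the 2 libraries of a group correlated at 0.940 to 0.992 over 8226 genes. The FPKM column (fragments per kilobase of transcript, scaled to depth) of control early 8-cell replicate 2 followed its own count column at a correlation of only 0.873, against 0.999 or more for the 19 others. That FPKM column was closest to the counts of P300 siRNA early 8-cell replicate 2, at 0.949. Which of its count and FPKM columns is right cannot be told from the deposited data. Results with early 8-cell controls rest on the count column, and counts were used except where FPKM is named. Ep300 had 22.6 and 29.9 CPM in P300 siRNA against 86.1 and 83.8 CPM in control late 2-cell embryos (log2 fold change -1.69 ± 0.37, adjusted p = 0.318). It had 11.4 and 19.1 against 48.3 and 88.4 CPM at the 4-cell stage (log2 fold change -2.15 ± 0.37, adjusted p = 0.00128), and 11.7 and 16.4 against 41.5 and 82.9 CPM at the early 8-cell stage (log2 fold change -2.15 ± 0.37, adjusted p = 8.19e-04). In late 8-cell embryos it had 16.2 and 13.2 CPM with P300 siRNA against 22.0 and 15.2 CPM in controls, where the groups overlapped (log2 fold change -0.36 ± 0.37, adjusted p = 0.5). It had 14.8 and 16.2 CPM with I1394G and 11.6 and 12.6 CPM with NaCr. Here and below, the value after ± is the standard error of the log2 fold change, p-values come from edgeR's quasi-likelihood test with Benjamini-Hochberg adjustment over all 16603 genes, and a call is an adjusted p under 0.05. The summed level of 8 preimplantation embryo markers lay between 2526 and 10925 CPM, with Oog1 at 0 after the 2-cell stage. The summed level of 9 cumulus and granulosa cell markers reached 9.29 to 15.6 CPM in P300 siRNA late 8-cell libraries, where 7 of the 9 were detected and Cyp19a1 and Fshr were at 0. In control late 8-cell libraries that sum was 1.27 to 1.39 CPM, with 2 of the 9 detected. The embryo marker sums there were 3178 to 3792 CPM with P300 siRNA and 7407 to 7955 CPM in controls. The part of these differences in the late 8-cell results was not tested. In bulk libraries, fewer cells of a type and less RNA per cell cannot be told apart.

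The stretch before the start of the genes was read as sequence because the SREBP factors act there. RefSeq promoters (build GRCm38.p6, not the mm9 build of the counts) matched 24 of the 30 genes; Fdps, Fdft1, Sqle, Stard4, Scd1 and Scd2 were not matched. The 250 bases before each start were searched on both strands for TCACNCCAC, the letters of a sterol regulatory element, for CCAAT, the NF-Y box that often accompanies it, and for CACGTG, an E-box that SREBP factors can also bind. Shown here are the 4 genes called at 3 stages of the P300 siRNA comparison, and Hmgcs1, the only matched gene whose window held TCACNCCAC. Each is written 5′ to 3′ on the strand of its gene, and capitals mark the motifs, including CCAAT read on the other strand as ATTGG. The windows lie at chr17:12960726-12960975 (minus strand) for Acat2, chr9:42264301-42264550 (minus strand) for Sc5d, chr5:28071162-28071411 (plus strand) for Insig1, chr3:129532136-129532385 (plus strand) for Elovl6 and chr13:119690101-119690350 (plus strand) for Hmgcs1.
Acat2: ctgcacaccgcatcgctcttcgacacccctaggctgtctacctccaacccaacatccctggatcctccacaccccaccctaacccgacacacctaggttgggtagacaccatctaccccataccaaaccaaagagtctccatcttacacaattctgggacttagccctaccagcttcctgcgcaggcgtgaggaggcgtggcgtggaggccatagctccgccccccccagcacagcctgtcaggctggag
Sc5d: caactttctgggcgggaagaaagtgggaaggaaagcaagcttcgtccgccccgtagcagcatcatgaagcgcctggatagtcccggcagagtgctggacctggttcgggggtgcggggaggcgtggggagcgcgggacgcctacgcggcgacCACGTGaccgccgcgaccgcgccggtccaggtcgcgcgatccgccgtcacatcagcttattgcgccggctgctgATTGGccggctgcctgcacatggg
Insig1: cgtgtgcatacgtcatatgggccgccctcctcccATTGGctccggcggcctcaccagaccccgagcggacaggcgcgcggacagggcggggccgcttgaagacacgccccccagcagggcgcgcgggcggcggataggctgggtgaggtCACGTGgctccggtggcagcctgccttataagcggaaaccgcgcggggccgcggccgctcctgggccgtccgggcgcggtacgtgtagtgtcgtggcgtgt
Elovl6: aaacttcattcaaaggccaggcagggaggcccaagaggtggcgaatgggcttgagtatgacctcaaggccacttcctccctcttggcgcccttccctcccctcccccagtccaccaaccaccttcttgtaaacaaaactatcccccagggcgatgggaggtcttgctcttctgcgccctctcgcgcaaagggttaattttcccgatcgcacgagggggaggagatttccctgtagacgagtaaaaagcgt
Hmgcs1: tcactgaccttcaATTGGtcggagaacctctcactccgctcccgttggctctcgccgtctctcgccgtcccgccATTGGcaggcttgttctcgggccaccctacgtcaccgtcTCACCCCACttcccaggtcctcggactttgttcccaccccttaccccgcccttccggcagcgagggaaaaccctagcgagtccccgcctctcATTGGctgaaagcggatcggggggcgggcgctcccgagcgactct
The Acat2 and Elovl6 windows held none of the 3 motifs. The Sc5d and Insig1 windows each held 1 CCAAT and 1 CACGTG. The Hmgcs1 window held 1 TCACNCCAC and 3 CCAAT. In no printed window did motifs share bases. Across all 27025 genes of the promoter table, 37.5% had CCAAT in at least 1 window, against 19 of the 24 matched genes of the set. CACGTG was present in 6.86% of all genes and in 5 of the 24, which were Hsd17b7, Sc5d, Dhcr7, Insig1 and Scap. TCACNCCAC was present in 1.22% of all genes and in 1 of the 24. These are matches of letters and were not tested as binding sites.

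P300 siRNA embryos were first compared with control embryos stage by stage. At the late 2-cell stage none of the 30 genes was called, with 1 gene at an unadjusted p under 0.05 and none called by DESeq2 or limma. There 0.00602% of all genes were called. A fit restricted to the 4 libraries compared called Cyp51 at this stage, among 508 calls over all genes. At the 4-cell stage 9 of 30 were called, 7 higher and 2 lower with P300 siRNA, while 15.0% of all genes were called, 7.77% higher and 7.25% lower. At the early 8-cell stage 14 of 30 were called, 10 higher and 4 lower, against 16.5% of all genes, 8.21% higher and 8.30% lower. At the late 8-cell stage 7 of 30 were called, 6 higher and 1 lower; this share of 23.3% lies below the 28.0% called among all genes, 13.6% higher and 14.3% lower. The median log2 fold change of the 30 genes was -0.06, 0.39, 0.31 and 0.16 from the late 2-cell to the late 8-cell stage, beside -0.04, 0.00, 0.04 and 0.06 over all genes tested. By role, the medians at the 4-cell, early 8-cell and late 8-cell stages were 0.73, 0.81 and 0.53 for the mevalonate steps, 0.25, -0.04 and -0.17 for the squalene and sterol steps, -0.01, 0.26 and 0.22 for control and carriage, and 0.12, 0.22 and 0.03 for fatty acid synthesis. In all, 17 of the 30 genes were called at 1 or more stages, 13 of them only higher and 4 only lower. The share of all genes called at 1 or more stages was not computed, so no background stands beside these counts. Acat2, Sc5d and Insig1 were higher and Elovl6 was lower at 3 stages.

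**Figure D1:**
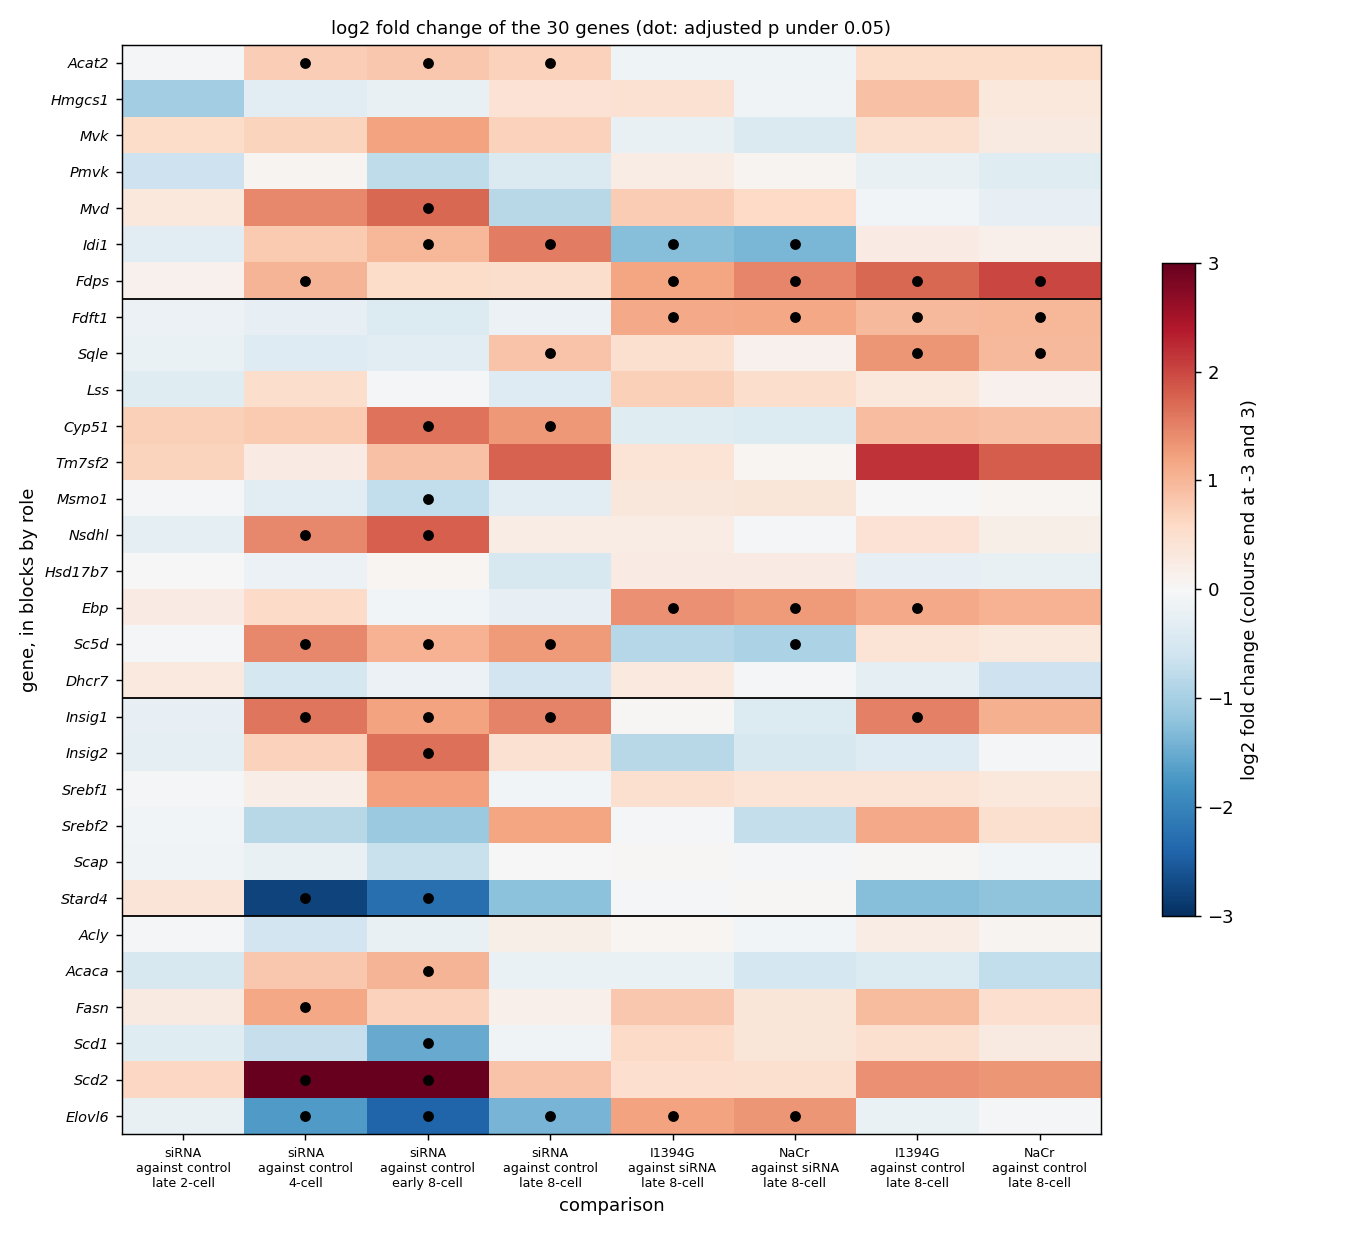
Log2 fold change of the 30 genes (rows, by role) in 8 comparisons (columns): P300 siRNA against control at 4 stages, and I1394G or NaCr late 8-cell embryos against siRNA and against control embryos. Colour gives the log2 fold change and a dot marks an adjusted p under 0.05 (edgeR); the late 2-cell column holds no dot and the early 8-cell column holds 14.

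Among the mevalonate steps, 2 genes rose at the 4-cell stage, 3 at the early 8-cell stage and 2 at the late 8-cell stage in P300 siRNA embryos, and none fell. The 4-cell and early 8-cell calls are 28.6% and 42.9% of these 7 genes, beside 15.0% and 16.5% of all genes. At the late 8-cell stage 28.0% of all genes were called. Acat2, which joins acetyl-CoA units in the cytosol, had 99.99 and 89.0 CPM in P300 siRNA against 65.7 and 48.2 CPM in control 4-cell embryos (log2 fold change 0.73 ± 0.21, adjusted p = 0.026). Early 8-cell embryos had 105 and 87.7 CPM with P300 siRNA and 60.6 and 48.9 CPM in controls (log2 fold change 0.81 ± 0.21, adjusted p = 0.0128). In late 8-cell embryos Acat2 had 148 and 140.4 CPM with P300 siRNA and 80.3 and 99.8 CPM in controls (log2 fold change 0.68 ± 0.21, adjusted p = 0.0217). Both P300 siRNA libraries lay above both control libraries at these 3 stages, whereas at the late 2-cell stage, with 19.1 and 21.6 against 20.1 and 22.7 CPM, the groups overlapped.

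Idi1, the isomerase that makes dimethylallyl diphosphate, had 74.0 and 70.9 CPM in P300 siRNA against 47.7 and 25.03 CPM in control early 8-cell embryos (log2 fold change 0.995 ± 0.33, adjusted p = 0.045). In late 8-cell embryos it had 209.7 and 191 CPM with P300 siRNA, far above the 67.9 and 71.0 CPM of controls (log2 fold change 1.53 ± 0.33, adjusted p = 0.00239). Its 4-cell values, 59.4 and 64.7 CPM with P300 siRNA and 51.8 and 21.1 CPM in controls, did not pass the test (log2 fold change 0.78 ± 0.33, adjusted p = 0.116). The groups did not overlap at any of these 3 stages. Mvd, the decarboxylase that yields isopentenyl diphosphate, had 15.0 and 11.8 CPM in P300 siRNA against 5.91 and 2.24 CPM in control early 8-cell embryos (log2 fold change 1.72 ± 0.52, adjusted p = 0.0303). In late 8-cell embryos the Mvd values were 11.7 and 22.4 CPM with P300 siRNA and 29.98 and 32.4 CPM in controls, without a call (log2 fold change -0.84 ± 0.49, adjusted p = 0.213). Both P300 siRNA libraries were the lower ones there and the higher ones at the early 8-cell stage.

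Fdps, which makes farnesyl diphosphate, had 598 and 292 CPM in P300 siRNA against 239 and 200.2 CPM in control 4-cell embryos (log2 fold change 1.02 ± 0.32, adjusted p = 0.0395). The first P300 siRNA library stood above the other 3. Without it the log2 fold change was 0.41 (adjusted p = 0.472), and the call was also lost without either control library (adjusted p = 0.0505 and 0.181). Hmgcs1, Mvk and Pmvk, which make and phosphorylate mevalonate, were called at no stage; their log2 fold changes ran between -0.76 for Pmvk and 1.21 for Mvk at the 4-cell to late 8-cell stages.

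**Figure D2:**
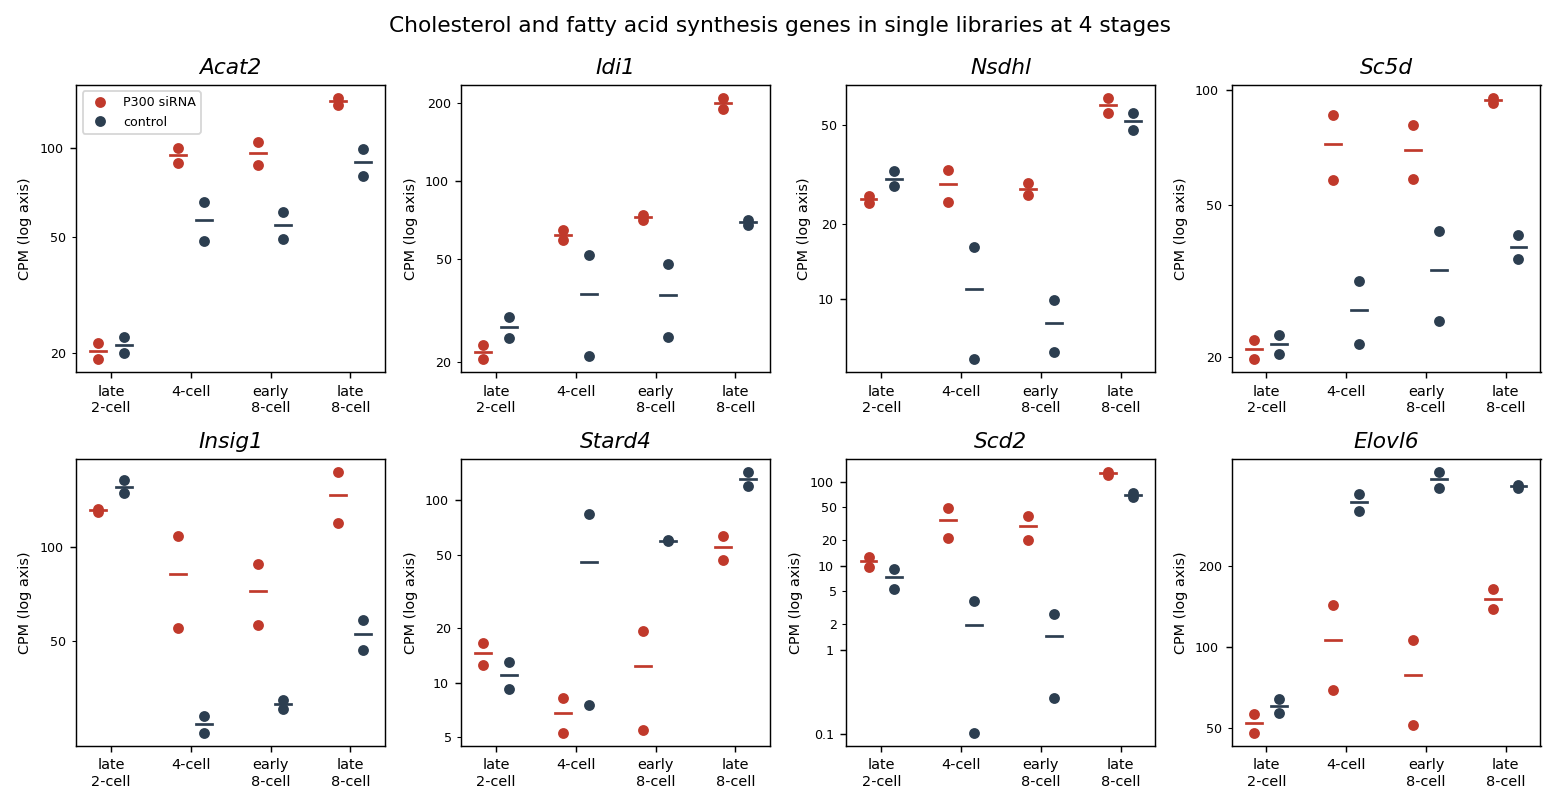
CPM (log axis) of Acat2, Idi1, Nsdhl, Sc5d, Insig1, Stard4, Scd2 and Elovl6 in each library of P300 siRNA (left of each pair) and control embryos at 4 stages, with points for libraries and bars for means of 2. Insig1 and Sc5d lie higher with P300 siRNA from the 4-cell stage on, Elovl6 lies lower, and the Stard4 libraries of the 4-cell controls are far apart, at 84.0 and 7.56 CPM.

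Of the 11 squalene and sterol genes, 2 rose at the 4-cell stage, 3 rose and 1 fell at the early 8-cell stage, and 3 rose at the late 8-cell stage. The 4-cell share of 18.2% lies near the 15.0% of all genes, and the early 8-cell share of 36.4% stands beside 16.5%. The 3 late 8-cell calls stand beside 28.0% of all genes. Sc5d, the lathosterol oxidase that puts a double bond into the ring, had 85.9 and 57.8 CPM in P300 siRNA against 31.6 and 21.5 CPM in control 4-cell embryos (log2 fold change 1.44 ± 0.28, adjusted p = 0.0032). Early 8-cell embryos had 81.0 and 58.4 CPM with P300 siRNA and 42.6 and 24.8 CPM in controls (log2 fold change 1.05 ± 0.28, adjusted p = 0.0161), and late 8-cell embryos had 92.4 and 95.1 CPM with P300 siRNA against 36.1 and 41.5 CPM in controls (log2 fold change 1.27 ± 0.28, adjusted p = 0.00308). The groups did not overlap at any of the 3, and the 4-cell and late 8-cell calls held when any one library of the stage was left out.

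Nsdhl, a dehydrogenase that helps remove the C4 methyl groups, had 24.7 and 33.2 CPM in P300 siRNA against 16.2 and 5.73 CPM in control 4-cell embryos (log2 fold change 1.43 ± 0.36, adjusted p = 0.0131). Its early 8-cell values were 29.2 and 26.3 CPM with P300 siRNA and 9.94 and 6.10 CPM in controls (log2 fold change 1.79 ± 0.37, adjusted p = 0.00283). In late 8-cell embryos Nsdhl had 56.3 and 64.5 CPM with P300 siRNA and 48.1 and 56.0 CPM in controls, above the level of the earlier stages in both groups and with no call (log2 fold change 0.22 ± 0.34, adjusted p = 0.673). Nsdhl is X-linked, and the X-linked Xist RNA also separated the 4-cell control libraries, with 72.8 CPM in the first and 0.367 CPM in the second, the library with the lower Nsdhl value. Ebp, also X-linked, was not lower in that second library, at 111 CPM in the first and 125 CPM in the second. Autosomal genes of the set went both ways between the first and second library, with 41.3 and 17.6 CPM for Cyp51 and 358 and 517 CPM for Fdft1. The part of the Xist difference in the Nsdhl result was not tested.

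Cyp51, the sterol 14-demethylase, had 85.7 and 49.1 CPM in P300 siRNA against 33.1 and 10.8 CPM in control early 8-cell embryos (log2 fold change 1.63 ± 0.41, adjusted p = 0.0115) and 182 and 173 against 69.2 and 74.7 CPM at the late 8-cell stage (log2 fold change 1.30 ± 0.40, adjusted p = 0.0223). Exons of Akap9 overlap Cyp51 on the opposite strand, and counting is not stated to use strand. Akap9 itself was higher with P300 siRNA by a log2 fold change of 1.65 at the early and 1.45 at the late 8-cell stage (adjusted p = 0.00178 and 0.00247), so reads of the 2 genes cannot be told apart there. Sqle, the squalene epoxidase, had 204 and 169.9 CPM in P300 siRNA against 98.8 and 107 CPM in control late 8-cell embryos (log2 fold change 0.86 ± 0.24, adjusted p = 0.0124). At the early 8-cell stage its values, 97.6 and 64.0 CPM with P300 siRNA and 124 and 81.7 CPM in controls, overlapped (log2 fold change -0.35 ± 0.24, adjusted p = 0.342).

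Msmo1, the C4-methyl sterol oxidase, was the sterol enzyme that fell: early 8-cell embryos had 117 and 85.5 CPM with P300 siRNA and 195 and 141 CPM in controls (log2 fold change -0.73 ± 0.24, adjusted p = 0.0432). On the FPKM scale its sign turned, to 0.03, in the fit that holds the control column that does not follow its counts, and was -0.67 without that column. Fdft1, Lss, Tm7sf2, Hsd17b7, Ebp and Dhcr7 were called at no stage in this comparison. Their widest difference was that of Tm7sf2, a sterol reductase with few reads, at 3.19 and 4.86 CPM with P300 siRNA and 0.975 and 1.43 CPM in controls at the late 8-cell stage (log2 fold change 1.76 ± 0.97, adjusted p = 0.187).

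The genes that control the pathway or carry sterol moved in both directions: 1 rose and 1 fell at the 4-cell stage, 2 rose and 1 fell at the early 8-cell stage, and 1 rose at the late 8-cell stage. The 4-cell and early 8-cell calls are 33.3% and 50% of these 6 genes, beside 15.0% and 16.5% of all genes. The late 8-cell call, 1 of 6, stands beside 28.0% of all genes. Insig1, the SCAP anchor that is itself a target of the SREBP factors, had 109 and 55.0 CPM in P300 siRNA against 25.3 and 28.5 CPM in control 4-cell embryos (log2 fold change 1.60 ± 0.29, adjusted p = 0.00195). Early 8-cell embryos had 87.9 and 56.1 CPM with P300 siRNA and 30.2 and 32.2 CPM in controls (log2 fold change 1.21 ± 0.29, adjusted p = 0.00853), and late 8-cell embryos had 119 and 174 against 46.6 and 58.4 CPM (log2 fold change 1.49 ± 0.29, adjusted p = 0.00116). At each of these stages both P300 siRNA libraries lay above both controls. At the late 2-cell stage, where Insig1 was high in all 4 libraries, it had 129 and 133 CPM with P300 siRNA and 149 and 163 CPM in controls (log2 fold change -0.25 ± 0.28, adjusted p = 1). After that stage the control values were all lower than any late 2-cell value.

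Insig2, its paralog, had 24.0 and 13.8 CPM in P300 siRNA against 9.45 and 2.60 CPM in control early 8-cell embryos (log2 fold change 1.66 ± 0.45, adjusted p = 0.0174). Stard4, which carries cholesterol between membranes, went the other way. In 4-cell embryos it had 8.23 and 5.30 CPM with P300 siRNA and 84.0 and 7.56 CPM in controls (log2 fold change -2.77 ± 0.72, adjusted p = 0.0161); the groups overlapped, and without the first control library the log2 fold change was -0.20 (adjusted p = 0.862). In early 8-cell embryos the values were 19.1 and 5.51 CPM with P300 siRNA and 59.6 and 60.3 CPM in controls (log2 fold change -2.27 ± 0.69, adjusted p = 0.0308), without overlap. Late 8-cell embryos showed 47.3 and 63.9 CPM with P300 siRNA against 144 and 119.6 CPM in controls, again without overlap but without a call (log2 fold change -1.24 ± 0.66, adjusted p = 0.171).

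Srebf1 and Srebf2, which encode the SREBP factors, had at most 9.99 CPM in any library and were called at no stage. Scap, their escort, had 73.1 and 65.0 CPM with P300 siRNA and 83.4 and 64.7 CPM in control late 2-cell embryos, and 18.01 and 21.3 CPM with P300 siRNA and 26.8 and 36.2 CPM in control early 8-cell embryos (log2 fold change -0.68 ± 0.27, adjusted p = 0.0875). Other settings called some of these genes: the DESeq2 test called Srebf1 and Scap at the early 8-cell stage, and limma on FPKM and the fit restricted to the 4 libraries compared called Srebf2 at the late 8-cell stage.

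In fatty acid synthesis 2 genes rose and 1 fell at the 4-cell stage, 2 rose and 2 fell at the early 8-cell stage, and 1 fell at the late 8-cell stage. That is 50% and 66.7% of these 6 genes at the 4-cell and early 8-cell stages, beside 15.0% and 16.5% of all genes. The late 8-cell call, 1 of 6, stands beside 28.0% of all genes. Elovl6, which elongates saturated fatty acids, had 143 and 69.4 CPM in P300 siRNA against 319.8 and 369.9 CPM in control 4-cell embryos (log2 fold change -1.70 ± 0.30, adjusted p = 0.00143). Early 8-cell embryos had 106 and 51.3 CPM with P300 siRNA and 389 and 446 CPM in controls (log2 fold change -2.41 ± 0.31, adjusted p = 6.55e-05), and late 8-cell embryos had 163 and 138 against 389.8 and 398 CPM (log2 fold change -1.39 ± 0.30, adjusted p = 0.0024). Every P300 siRNA library lay below every control library at these stages, and the calls held without any one library of the stage. At the late 2-cell stage, with 48.0 and 56.1 CPM with P300 siRNA against 64.0 and 56.9 CPM in controls, the difference did not pass the test (log2 fold change -0.21 ± 0.30, adjusted p = 1). With limma on log2(FPKM + 1) Elovl6 kept its direction at all 3 stages but was called at none of them (adjusted p = 0.0639, 0.335 and 0.194 from the 4-cell to the late 8-cell stage); without the control FPKM column that does not follow its counts it was called at all 3.

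Scd2, a stearoyl-CoA desaturase, had the largest fold change of the 30 genes at the 4-cell and early 8-cell stages. It had 48.7 and 21.3 CPM in P300 siRNA against 0.103 and 3.85 CPM in control 4-cell embryos (log2 fold change 3.92 ± 0.71, adjusted p = 0.00165), and 39.1 and 20.4 against 2.66 and 0.269 CPM in early 8-cell embryos (log2 fold change 4.37 ± 0.77, adjusted p = 8.71e-04). The controls were close to 0 there, and the log2 fold change ran from 3.16 to 8.26 at the 4-cell and from 3.48 to 6.73 at the early 8-cell stage as 1 library at a time was left out. In late 8-cell embryos Scd2 was present in both groups, with 120.0 and 131 CPM with P300 siRNA and 66.3 and 72.4 CPM in controls, without overlap and without a call (log2 fold change 0.86 ± 0.59, adjusted p = 0.299), though limma on FPKM, the fit with no filter and the fit restricted to the 4 libraries compared called it. Scd1, its paralog, had 30.9 and 23.9 CPM in P300 siRNA against 72.9 and 83.7 CPM in control early 8-cell embryos (log2 fold change -1.51 ± 0.36, adjusted p = 0.00765), so the paralogs differed in direction. They are similar in sequence, and how the counting treated reads shared by both was not tested.

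Acaca, which makes malonyl-CoA, had 30.3 and 31.8 CPM in P300 siRNA against 17.7 and 12.7 CPM in control early 8-cell embryos (log2 fold change 1.03 ± 0.32, adjusted p = 0.0333). Fasn, the fatty acid synthase, had 66.2 and 51.0 CPM with P300 siRNA against 22.8 and 29.6 CPM in control 4-cell embryos (log2 fold change 1.15 ± 0.27, adjusted p = 0.00946). Acly, which makes cytosolic acetyl-CoA from citrate, was called at no stage, with its widest difference at the 4-cell stage (log2 fold change -0.57 ± 0.21, adjusted p = 0.0769).

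These calls depended on single libraries to different degrees. At the 4-cell stage leaving out 1 library at a time gave 6 to 10 called genes, with Elovl6, Insig1, Sc5d and Scd2 called each time. Fasn was lost without P300 siRNA replicate 1 (adjusted p = 0.0699), and Acat2 and Nsdhl were lost without control replicate 2, at log2 fold changes of 0.52 and 0.84. Acat2 was also lost without either P300 siRNA library, and Nsdhl and Stard4 without P300 siRNA replicate 2. With only the 4 libraries of that stage in the fit, 0 of 30 were called. At the early 8-cell stage the count was 4 without control replicate 2, 7 without P300 siRNA replicate 1 and 8 without P300 siRNA replicate 2, and Elovl6 and Scd2 were called each time. Without control replicate 2, the lower library for many of these genes, the log2 fold changes were 0.81 for Acaca, 0.67 for Acat2, 1.03 for Cyp51, 0.60 for Idi1, 1.25 for Insig1, 0.999 for Insig2, 1.18 for Mvd, 1.48 for Nsdhl, 0.71 for Sc5d and -2.26 for Stard4, none of them called. Msmo1 was lost without control replicate 1 (-0.49) or P300 siRNA replicate 2 (-0.53) and Scd1 without P300 siRNA replicate 2 (-1.34). At the late 8-cell stage the count was 4 without either control library or without P300 siRNA replicate 1; Elovl6, Idi1, Insig1 and Sc5d were called each time, Acat2 and Cyp51 were lost without any of the 4 libraries, and Sqle was lost without either control or without P300 siRNA replicate 1.

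Whether the difference between P300 siRNA and control embryos itself changed with stage was tested in the same fit. A joint test over the 4 stages called 8 of the 30 genes (16.3% of all genes): Elovl6 (adjusted p = 0.0113), Insig1 (0.013), Scd2 (0.0144), Nsdhl (0.02), Sqle (0.0348), Idi1 (0.0459), Mvd (0.0485) and Sc5d (0.0491). Between the late and the early 8-cell stage, the log2 fold change of P300 siRNA against control differed for 3 of the 30, against 6.63% of all genes, 3.01% higher and 3.62% lower. Mvd differed by -2.57 ± 0.72 (adjusted p = 0.0406) and Scd2 by -3.52 ± 0.96 (adjusted p = 0.0376), both lower at the late stage. Sqle differed by 1.21 ± 0.34 (adjusted p = 0.0403), being higher at the late stage. Each of these 3 calls was lost when some libraries were left out, with the Scd2 value between -5.89 and -2.64; the joint test gave 2 to 11 called genes and the late against early test 0 to 4.

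The embryos given I1394G or NaCr were compared with late 8-cell embryos given P300 siRNA alone and with late 8-cell controls. Both comparisons with P300 siRNA share the same 2 siRNA libraries, 1 of them the shallowest, and both comparisons with controls share the same 2 control libraries. Against P300 siRNA, 5 of the 30 genes were called with I1394G (10.8% of all genes), 4 higher and 1 lower, beside 6.19% and 4.58% of all genes in these directions. With NaCr 6 were called (15.3% of all genes), 4 higher and 2 lower, beside 8.77% and 6.57%. Against controls, 5 were called with I1394G and 3 with NaCr, all higher. Of all genes, 3.17% were called with I1394G, 1.99% higher and 1.18% lower, and 1.57% with NaCr, 1.07% higher and 0.500% lower. Between I1394G and NaCr embryos none of the 30 differed, and 0% of all genes did; none of the 30 was at an unadjusted p under 0.05 and neither DESeq2 nor limma called any. The cumulus and granulosa marker sums were 2.02 to 3.16 CPM with I1394G and 2.24 to 2.77 CPM with NaCr, and the embryo marker sums were 7310 to 7682 and 8886 to 9532 CPM; their part in these results was not tested.

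Fdps reached 1286 and 1533 CPM with I1394G and 1478 and 1941 CPM with NaCr, against 447 and 787 CPM with P300 siRNA alone and 415 and 441 CPM in controls. Every treated library was above all 4 others. Against P300 siRNA the log2 fold change was 1.19 ± 0.32 with I1394G (adjusted p = 0.0235) and 1.47 ± 0.32 with NaCr (adjusted p = 0.00508). Against controls it was 1.72 ± 0.32 (adjusted p = 0.00699) and 1.999 ± 0.33 (adjusted p = 0.00429).

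Fdft1, the squalene synthase, had 1025 and 886 CPM with I1394G and 871 and 1082 CPM with NaCr, against 473 and 396 CPM with P300 siRNA and 513 and 462 CPM in controls. The treated libraries again stood above all others, while P300 siRNA alone did not differ from controls by the test. The log2 fold change against P300 siRNA was 1.14 with I1394G (adjusted p = 0.00334) and 1.17 with NaCr (adjusted p = 0.00157), and both calls held without any one library. Against controls it was 0.97 with I1394G (adjusted p = 0.0185) and 1.002 with NaCr (adjusted p = 0.0206). Ctsb, whose exons overlap Fdft1 on the opposite strand, had 0.30 and 0.17 against P300 siRNA without a call, but 0.87 and 0.74 against controls with a call (adjusted p = 0.012 and 0.0431).

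Ebp, the sterol isomerase, had 402 and 369 CPM with I1394G and 310.2 and 412 CPM with NaCr, against 153 and 144 CPM with P300 siRNA and 177 and 173 CPM in controls. Its log2 fold change against P300 siRNA was 1.38 ± 0.30 with I1394G (adjusted p = 0.0078) and 1.29 ± 0.30 with NaCr (adjusted p = 0.00799). Against controls it was 1.14 with I1394G (adjusted p = 0.0454) and 1.05 with NaCr (adjusted p = 0.0929). The I1394G call was lost without any one of its 4 libraries, and the DESeq2 test, the fit with no filter and the fit restricted to the 4 libraries compared called the NaCr value as well. Ebp is X-linked, and Xist had 139 and 98.3 CPM with I1394G and 93.1 and 127 CPM with NaCr. With P300 siRNA alone Xist had 69.8 and 53.3 CPM, and in controls 276 and 140 CPM. The part of these Xist differences in the Ebp result was not tested. Sqle had 245 and 274 CPM with I1394G and 193 and 213 CPM with NaCr, against 204 and 169.9 CPM with P300 siRNA and 98.8 and 107 CPM in controls. It was higher than in controls with I1394G (log2 fold change 1.33 ± 0.24, adjusted p = 0.00503) and with NaCr (log2 fold change 0.98 ± 0.24, adjusted p = 0.044), as it was with P300 siRNA alone.

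**Figure D3:**
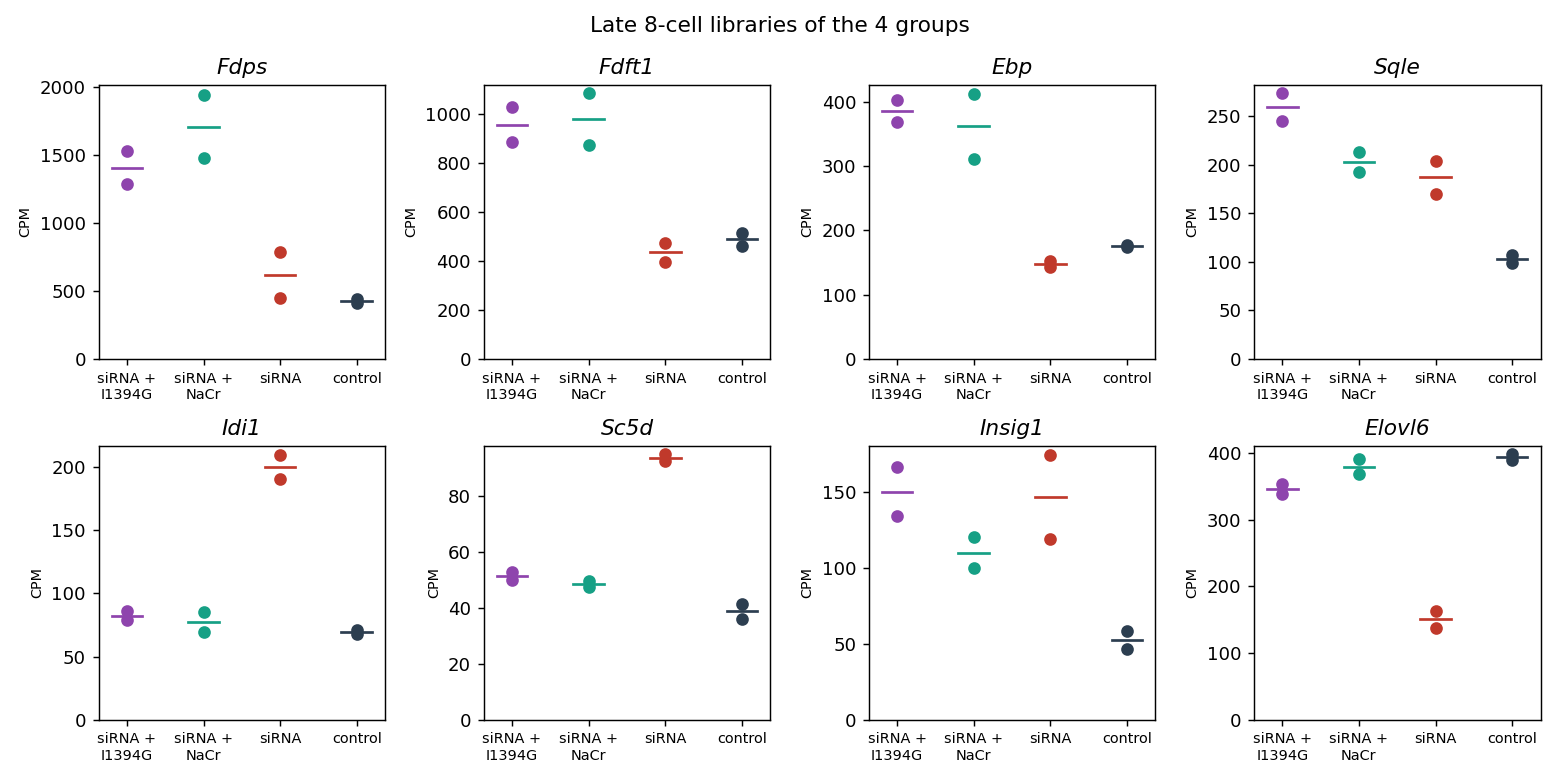
CPM (linear axis from 0) of Fdps, Fdft1, Ebp, Sqle, Idi1, Sc5d, Insig1 and Elovl6 in late 8-cell embryos with I1394G, NaCr, P300 siRNA alone and in controls, with points for libraries and bars for means of 2. Fdps, Fdft1 and Ebp stand high in the 4 treated libraries only, Idi1 stands high in the 2 P300 siRNA libraries only, and Elovl6 is low in those 2 alone.

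For Idi1 and Elovl6 the treated libraries lay with the controls. Idi1 had 79.2 and 85.7 CPM with I1394G and 85.4 and 69.3 CPM with NaCr, against 209.7 and 191 CPM with P300 siRNA and 67.9 and 71.0 CPM in controls. The log2 fold change against P300 siRNA was -1.28 ± 0.32 with I1394G (adjusted p = 0.0171) and -1.37 ± 0.33 with NaCr (adjusted p = 0.0086). Elovl6 had 338 and 353 CPM with I1394G and 368 and 390.3 CPM with NaCr, against 163 and 138 CPM with P300 siRNA and 389.8 and 398 CPM in controls. Its log2 fold change against P300 siRNA was 1.20 ± 0.30 with I1394G (adjusted p = 0.0151) and 1.34 ± 0.30 with NaCr (adjusted p = 0.00562). Against controls neither gene was called in either treated group. Sc5d had 49.97 and 53.0 CPM with I1394G and 47.7 and 49.7 CPM with NaCr, against 92.4 and 95.1 CPM with P300 siRNA and 36.1 and 41.5 CPM in controls. It was called lower than with P300 siRNA under NaCr (log2 fold change -0.95 ± 0.28, adjusted p = 0.0293) and not under I1394G (log2 fold change -0.86 ± 0.28, adjusted p = 0.0542). The NaCr call was lost without any one of its 4 libraries. Sc5d was called lower under I1394G too with DESeq2 size factors, the DESeq2 test, no filter, the replicate block, the fit restricted to the 4 libraries compared and limma on FPKM. The difference between the treatments was not called.

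For Insig1, Acat2, Cyp51 and Scd2 every treated library lay above both control libraries. Insig1 had 166 and 134 CPM with I1394G and 120.3 and 99.99 CPM with NaCr, against 119 and 174 CPM with P300 siRNA and 46.6 and 58.4 CPM in controls. The I1394G group was called higher than controls (log2 fold change 1.52 ± 0.29, adjusted p = 0.00758) and the NaCr group was not (log2 fold change 1.07 ± 0.29, adjusted p = 0.0684), though the DESeq2 test, the fit with no filter and the fit restricted to the 4 libraries compared called it. Acat2 had 142 and 124 CPM with I1394G and 133 and 133 CPM with NaCr, against 148 and 140.4 CPM with P300 siRNA and 80.3 and 99.8 CPM in controls. Scd2 had 185 and 174 CPM with I1394G and 181 and 168 CPM with NaCr, against 120.0 and 131 CPM with P300 siRNA and 66.3 and 72.4 CPM in controls. Cyp51 had 140.2 and 134 CPM with I1394G and 139 and 127 CPM with NaCr, against 182 and 173 CPM with P300 siRNA and 69.2 and 74.7 CPM in controls. Acat2, Cyp51 and Scd2 were not called in a treated group in the edgeR fit of all 20 libraries. In the fit restricted to the 4 libraries compared, all 3 were called higher than controls in both treated groups, and with no filter on low counts Cyp51 and Scd2 were. Over all 30 genes the I1394G mean lay above both the P300 siRNA and the control mean for 16, between them for 11 and below both for 3. The NaCr mean lay above both for 11, between them for 15 and below both for 4. The same positions were not counted over all genes, so no background stands beside them.

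The treated counts leaned on few libraries. Against P300 siRNA, 1 gene was called with I1394G without siRNA replicate 1 or without I1394G replicate 1, and 2 without I1394G replicate 2; 2 were called with NaCr without NaCr replicate 2. Against controls 0 were called in either treated group without either control library. The balance of directions moved with the scaling: with limma on FPKM the calls against P300 siRNA were 0 higher and 3 lower with I1394G and 1 higher and 4 lower with NaCr, and with DESeq2 size factors 4 higher and 2 lower with I1394G. The P300 siRNA calls against controls were 9 higher and 0 lower at the 4-cell stage and 13 higher and 0 lower at the late 8-cell stage on the FPKM scale. All genes called on that scale leaned the same way: 77.6% of them at the 4-cell and 74.8% at the late 8-cell stage were higher with P300 siRNA than in controls, and 15.3% were higher in each treated group than with P300 siRNA.

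In control embryos alone, the stages were compared step by step. From the late 2-cell to the 4-cell stage 18 of 30 were called, 9 higher and 9 lower in 4-cell embryos, when 61.2% of all genes were called, 27.0% higher and 34.2% lower. The separate record numbers of the late 2-cell libraries coincide with stage in this step. From the 4-cell to the early 8-cell stage none was called, against 1.13% of all genes, 0.620% higher and 0.506% lower; none was at an unadjusted p under 0.05, and neither DESeq2 nor limma called any. From the early to the late 8-cell stage 12 were called, 11 higher and 1 lower in late 8-cell embryos, against 26.2% of all genes, 15.0% higher and 11.2% lower. Their median log2 fold change over these steps was 0.34, 0.07 and 0.73, beside -0.40, 0.00 and 0.11 over all genes.

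Genes higher in 4-cell than in late 2-cell controls were Fdps (3.01 on the log2 scale), Hmgcs1 (2.89), Ebp (2.87), Elovl6 (2.51), Msmo1 (2.27), Stard4 (2.04), Acat2 (1.41), Acaca (1.11) and Lss (0.86). The Stard4 call was lost without control 4-cell replicate 1, where its log2 fold change was -0.48, and without control late 2-cell replicate 1. The Lss call was lost without control 4-cell replicate 2 (0.41) and without either late 2-cell library. Genes lower in 4-cell controls were Mvk (-2.64), Insig1 (-2.53), Srebf2 (-2.37), Hsd17b7 (-2.09), Scap (-1.76), Scd2 (-1.68), Dhcr7 (-1.65), Nsdhl (-1.51) and Sqle (-0.57). The Scd2 value ran from -6.03 to -0.87 as 1 library at a time was left out, and its call was lost without control 4-cell replicate 1 and without control late 2-cell replicate 1. Dhcr7 ran from -2.67 to -1.03 and was lost without control 4-cell replicate 1. Nsdhl ran from -2.35 to -0.91 and was called each time. Sqle ran from -0.83 to -0.30 and was lost without 3 of the 4 libraries, all but control 4-cell replicate 2. Srebf2 was lost without control 4-cell replicate 2 and without control late 2-cell replicate 1. Insig1, Scap and Srebf2 in this second list belong to the control of the pathway.

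In late 8-cell controls, Scd2 (5.59), Mvd (2.94), Nsdhl (2.70), Insig2 (1.92), Cyp51 (1.72), Hsd17b7 (1.57), Pmvk (1.27), Fdps (1.02), Idi1 (0.93), Msmo1 (0.87) and Acat2 (0.72) were higher than in early 8-cell controls, and Scap (-1.12) was lower. Mvd had 29.98 and 32.4 CPM in late 8-cell controls against 5.91 and 2.24 CPM in early 8-cell controls. Nsdhl had 48.1 and 56.0 CPM in late 8-cell controls against 9.94 and 6.10 CPM in early 8-cell controls. These 2 calls and that of Scd2 held without any one library; without control early 8-cell replicate 2 they were the only 3 of the 12 left, and without control late 8-cell replicate 2 there were 6 calls. Without control early 8-cell replicate 2 the log2 fold change was 1.12 for Cyp51, 0.99 for Hsd17b7, 0.54 for Idi1 and 1.26 for Insig2.

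**Figure D4:**
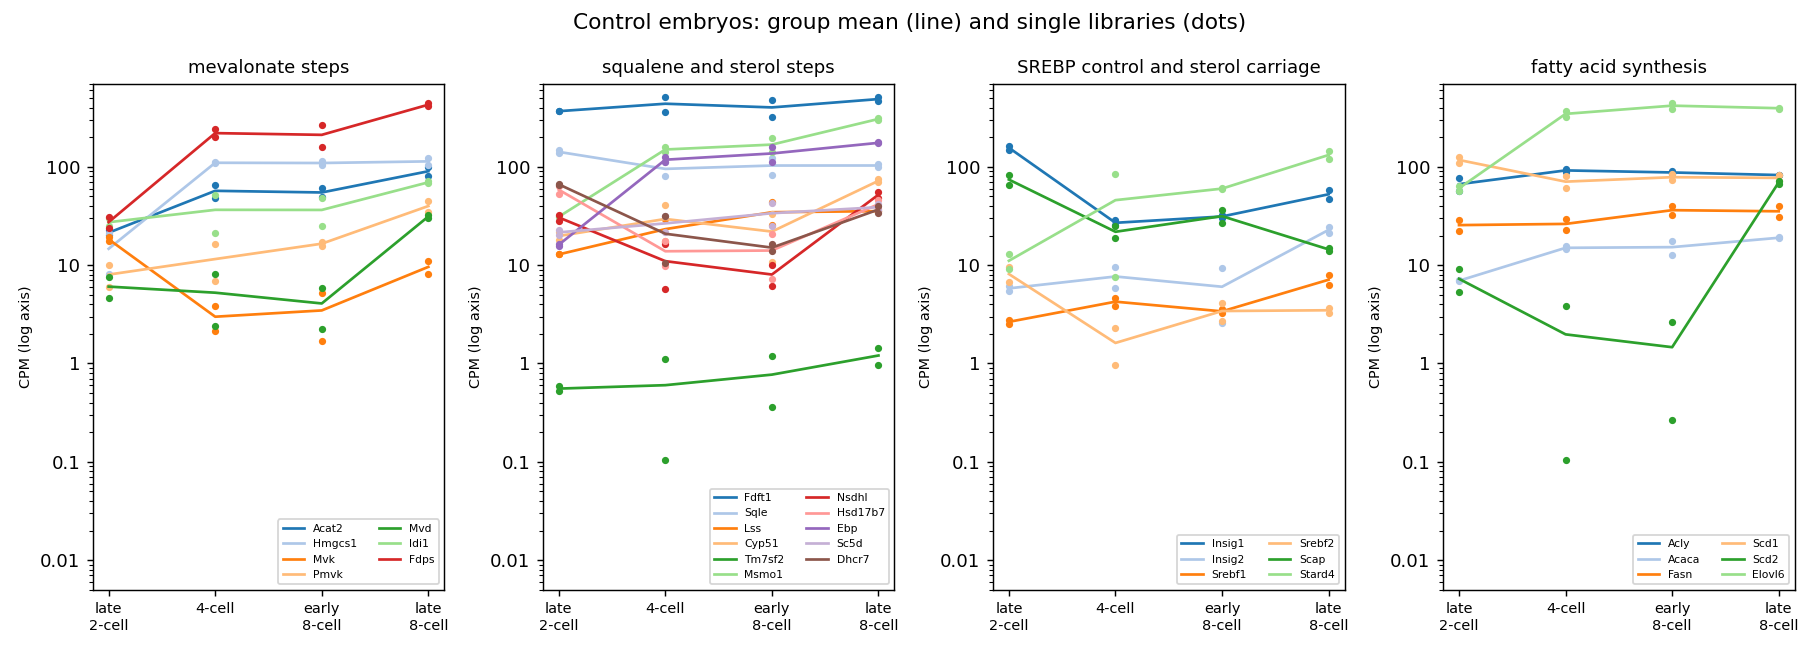
CPM (log axis) of the 30 genes in control embryos at 4 stages, in 4 panels by role, with lines through the means of 2 libraries and points for libraries. Fdps and Ebp lie higher from the 4-cell stage on, Insig1 lies lower, and Scd2 dips to 0.103 and 3.85 CPM in 4-cell controls before its late 8-cell values of 66.3 and 72.4 CPM.

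Levels between genes were compared per length, in the deposited FPKM. In late 8-cell controls Fdps stood highest at 250.4 ± 10.1 FPKM (SD, n = 2, as for the values that follow), then Msmo1 at 142 ± 4.65, Fdft1 at 113 ± 8.60, Ebp at 85.9 ± 1.35, Elovl6 at 56.6 ± 0.651 and Acat2 at 37.1 ± 5.58. Fasn was at 3.04 ± 0.587 and Srebf1 at 1.35 ± 0.205 FPKM. In late 2-cell controls Fdft1 at 118 ± 0.629, Insig1 at 69.8 ± 4.49 and Sqle at 61.1 ± 2.96 FPKM led the set.

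Genes that feed the pathway or use its products were counted from lists of 12, 32, 24, 17 and 16 genes. The share of each list called stands beside the 15.0%, 16.5% and 28.0% of all genes called at the 4-cell, early 8-cell and late 8-cell stages. Of the 12 genes that supply acetyl-CoA and NADPH, 3 rose and 1 fell with P300 siRNA at the 4-cell stage, 3 rose and 2 fell at the early 8-cell stage, and 3 rose and 5 fell at the late 8-cell stage, which is 33.3%, 41.7% and 66.7% of the list. Slc25a1, the carrier that exports mitochondrial citrate, had 31.9 and 53.2 CPM in P300 siRNA against 3.23 and 4.85 CPM in control late 8-cell embryos and log2 fold changes of 2.71, 3.57 and 3.40 from the 4-cell to the late 8-cell stage. Idh1, the cytosolic isocitrate dehydrogenase that makes NADPH, fell, with -1.34, -2.28 and -1.33. Me1, malic enzyme, was higher at the late 8-cell stage, and Pdha1, Pdhb, Idh2 and Aacs were lower there.

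Of 32 genes of elongation, activation and glycerolipid synthesis, 6 rose and 3 fell at the 4-cell stage, 4 rose and 5 fell at the early 8-cell stage and 8 rose and 4 fell at the late 8-cell stage, or 28.1%, 28.1% and 37.5%. Hacd2, a dehydratase of the elongation cycle, rose at all 3 (1.06, 1.44 and 1.77 on the log2 scale). Agpat2, which acylates lysophosphatidic acid, fell (-0.94, -1.39 and -1.90), as did Dgat2, which makes triglyceride (-1.10, -1.65 and -1.44). Of 24 genes of SREBP processing, sterol sensing, storage and transport, 3 rose and 3 fell, then 2 rose and 3 fell, then 6 rose and 6 fell over the same stages, or 25%, 20.8% and 50%. Npc2, which hands cholesterol out of lysosomes, fell at all 3 (-0.70, -0.87 and -1.34). Mylip, a ligase that degrades lipoprotein receptors, had 8.76 and 8.66 CPM in P300 siRNA against 0.513 and 0.772 CPM in control late 8-cell embryos (3.74).

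Lipid droplet proteins and lipases, with 15 of 17 genes tested, held 1 rise at the 4-cell stage, 2 rises at the early 8-cell stage, and 1 rise and 3 falls at the late 8-cell stage. These shares of 6.67%, 13.3% and 26.7% stand beside 15.0%, 16.5% and 28.0% of all genes, and the early and late 8-cell shares lie near those of all genes. Bscl2, the seipin of droplet assembly, had 27.9 and 55.2 CPM in P300 siRNA against 3.44 and 2.59 CPM in control late 8-cell embryos (3.80 on the log2 scale). Of 16 other users of the mevalonate branch, none rose and 1 fell at the 4-cell and at the early 8-cell stage, and 2 rose and 7 fell at the late 8-cell stage, which is 6.25%, 6.25% and 56.2% of the list. Zmpste24, which trims farnesylated prelamin A, fell at each (-1.34, -1.27 and -1.28), and Ggps1, which makes geranylgeranyl diphosphate from the Fdps product, rose at the late 8-cell stage (0.89). Against P300 siRNA, I1394G gave 4 rises and 1 fall and NaCr 5 rises and 1 fall in this list, with Zmpste24 and Rabggta higher and Ggps1 lower in both. That is 31.2% and 37.5% of the list, beside 10.8% and 15.3% of all genes. Each other list also held calls in both of these comparisons, with shares not given here. Among them Pdha1, Agpat2, Npc2 and Plin3 were higher and Lpin2 and Mylip lower in both. At the late 2-cell stage none of the genes in these 5 lists was called. At the late 8-cell stage the median log2 fold changes of the 5 lists, in the order given, were -0.61, 0.20, -0.07, 0.03 and -0.60, beside 0.06 over all genes.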

How the data were processed

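RNA was sequenced from 20 libraries of mouse preimplantation embryos. Per the submitters' processing notes, HISAT2 2.2.1 and Cufflinks 2.2 were among the tools, beside cutadapt 4.1 and bcl2fastq 2.20.0.422, and the build was mm9; the counting tool and its strand setting are not given in the sources used here. The authors deposited raw counts per gene, without normalization, and FPKM values. FPKM was used for levels between genes and for an alternative only.

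Counts were fitted in R 4.3.3 with edgeR 4.0.16: the low-count filter on groups, TMM scaling, 1 coefficient per group over all 20 libraries, and the two-sided quasi-likelihood F test with Benjamini-Hochberg adjustment over 16603 genes. There were 10 residual and 7.98 prior degrees of freedom. Standard errors of log2 fold changes were the log2 fold change divided by the root of its F statistic. CPM values were computed here on TMM-scaled library sizes. The script was tested on simulated data with known changes. Total counts of 3.20 M to 24.8 M per library set the precision of low genes, and these tests cover counting error and the spread between libraries.

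Alternatives were DESeq2 1.42.0 size factors in edgeR, the DESeq2 test, no low-count filter, limma 3.58.1 on log2(FPKM + 1) for genes with at least 1 FPKM in 2 libraries, a fit restricted to the groups compared, a replicate block and leaving out each library. Named genes were the 30 members, with values by library for those called with P300 siRNA or in a treated group. Of the related lists, some of the called members were named, and 1 is not reported here. The 30 genes and all lists were chosen with earlier results of these data known. Promoter sequences are RefSeq's for GRCm38.p6. Figures were drawn in Python 3.11.15 with matplotlib 3.10.9. Markers of sperm, blood and fibroblasts summed to at most 3.35, 0.438 and 16.1 CPM in any library.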

Additional observations from a re-analysis of the deposited data

Results flagged for a closer look

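The difference between P300 siRNA and control embryos changed with stage for 8 of the 30 genes in the joint test over the 4 stages (edgeR's quasi-likelihood test, adjusted over all genes). That test called 16.3% of all genes. The adjusted p was 0.0113 for Elovl6, 0.0459 for Idi1, 0.013 for Insig1, 0.0485 for Mvd, 0.02 for Nsdhl, 0.0491 for Sc5d, 0.0144 for Scd2 and 0.0348 for Sqle. The log2 fold changes of P300 siRNA against control from the late 2-cell to the late 8-cell stage were -0.21, -1.70, -2.41 and -1.39 for Elovl6, and -0.25, 1.60, 1.21 and 1.49 for Insig1.

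Between the late and the early 8-cell stage that log2 fold change differed for 3 genes. Mvd differed by -2.57, with -0.84 at the late and 1.72 at the early 8-cell stage. Scd2 differed by -3.52, with 0.86 at the late and 4.37 at the early stage. Sqle differed by 1.21, with 0.86 at the late and -0.35 at the early stage.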

How the results depend on the processing

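Of 90 calls of single genes in 14 comparisons, 30 held under every left-out library and 60 were lost under at least 1. The depth and 2 libraries a group limit what can be seen: whether genes under about 10 CPM, such as Srebf1, Srebf2 and Tm7sf2, were called depended on the setting. DESeq2 size factors kept 86 of the 90 calls and the DESeq2 test 85, and neither turned a direction. No filter and the replicate block kept 88 each. The fit restricted to the groups compared kept 60. Limma on FPKM kept 47 and turned 1 direction, and it kept 64 without the control FPKM column that does not follow its counts. Size factors moved the median of all genes by 0.14 (log2) for P300 siRNA against control at the late 8-cell stage and by -0.25 for 4-cell against late 2-cell controls.

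The counts of calls that moved by over 1.5 times follow, each with the number in the edgeR fit in brackets and "siRNA" standing for P300 siRNA against control; the cause was not tested beyond the smaller sets of libraries that the settings themselves use. With the DESeq2 test, the calls among the 30 genes were 5 (3) for NaCr against control. Over all genes the calls were 33 (1) for siRNA at the late 2-cell stage, 1075 (527) for I1394G against control, 737 (261) for NaCr against control, 432 (187) for early 8-cell against 4-cell controls and 1954 (1100) for the late against early 8-cell difference. With limma on log2(FPKM + 1), the calls among the 30 genes were 0 (14) for siRNA at the early 8-cell stage, 13 (7) for siRNA at the late 8-cell stage, 3 (5) for I1394G against P300 siRNA, 1 (3) for NaCr against control and 3 (8) for the joint test over stages. Over all genes the calls were 79 (1) for siRNA at the late 2-cell stage, 1368 (2494) for siRNA at the 4-cell stage, 165 (2741) for siRNA at the early 8-cell stage, 330 (527) for I1394G against control, 147 (261) for NaCr against control and 1457 (2703) for the joint test over stages. In the same limma fit without the FPKM column of control early 8-cell replicate 2, added after seeing the data, the calls among the 30 genes were 7 (14) for siRNA at the early 8-cell stage, 14 (7) for siRNA at the late 8-cell stage, 10 (6) for NaCr against P300 siRNA and 4 (12) for late 8-cell against early 8-cell controls. Over all genes the calls were 91 (1) for siRNA at the late 2-cell stage, 1661 (2741) for siRNA at the early 8-cell stage, 2831 (1789) for I1394G against P300 siRNA, 4021 (2546) for NaCr against P300 siRNA, 115 (187) for early 8-cell against 4-cell controls and 2419 (4346) for late 8-cell against early 8-cell controls. With no filter on low counts, the calls among the 30 genes were 10 (5) for I1394G against control, 8 (3) for NaCr against control and 6 (3) for the late against early 8-cell difference. Over all genes the calls were 12 (1) for siRNA at the late 2-cell stage, 1140 (527) for I1394G against control, 793 (261) for NaCr against control, 20 (0) for I1394G against NaCr, 693 (187) for early 8-cell against 4-cell controls, 4473 (2703) for the joint test over stages and 1885 (1100) for the late against early 8-cell difference. With only the libraries of the groups compared, the calls among the 30 genes were 1 (0) for siRNA at the late 2-cell stage, 0 (9) for siRNA at the 4-cell stage, 7 (14) for siRNA at the early 8-cell stage, 11 (7) for siRNA at the late 8-cell stage, 16 (5) for I1394G against control, 10 (3) for NaCr against control and 3 (8) for the joint test over stages. Over all genes the calls were 508 (1) for siRNA at the late 2-cell stage, 59 (2494) for siRNA at the 4-cell stage, 4031 (527) for I1394G against control, 2263 (261) for NaCr against control, 2 (0) for I1394G against NaCr, 70 (187) for early 8-cell against 4-cell controls, 1580 (2703) for the joint test over stages and 530 (1100) for the late against early 8-cell difference. The log2 fold change of Msmo1 at the early 8-cell stage was 0.0339 with limma on FPKM, and that of Stard4 between 4-cell and late 2-cell controls ran between -0.48 without control 4-cell replicate 1 and 2.93 without control 4-cell replicate 2.

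Leaving out 1 library at a time, with the remaining library of a group taken to vary like the other groups, gave between these lowest and highest numbers of calls. Of the 30 genes there were 0 to 0 for siRNA at the late 2-cell stage, 6 to 10 for siRNA at the 4-cell stage, 4 to 11 for siRNA at the early 8-cell stage, 4 to 5 for siRNA at the late 8-cell stage, 1 to 5 for I1394G against P300 siRNA, 2 to 5 for NaCr against P300 siRNA, 0 to 2 for I1394G against control, 0 to 2 for NaCr against control, 0 to 0 for I1394G against NaCr, 13 to 18 for 4-cell against late 2-cell controls, 0 to 1 for early 8-cell against 4-cell controls, 3 to 12 for late 8-cell against early 8-cell controls, 2 to 11 for the joint test over stages and 0 to 4 for the late against early 8-cell difference. Of all genes there were 0 to 1 for siRNA at the late 2-cell stage, 1383 to 3107 for siRNA at the 4-cell stage, 1313 to 2365 for siRNA at the early 8-cell stage, 2215 to 3425 for siRNA at the late 8-cell stage, 449 to 1948 for I1394G against P300 siRNA, 912 to 2282 for NaCr against P300 siRNA, 56 to 162 for I1394G against control, 12 to 113 for NaCr against control, 0 to 1 for I1394G against NaCr, 8349 to 9304 for 4-cell against late 2-cell controls, 113 to 928 for early 8-cell against 4-cell controls, 2010 to 3642 for late 8-cell against early 8-cell controls, 1188 to 4394 for the joint test over stages and 204 to 1404 for the late against early 8-cell difference.

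The labels do not tie replicate numbers together, and libraries with the same number in P300 siRNA and control groups deviated together at correlations of 0.186, 0.343, 0.042 and 0.0542 from the late 2-cell to the late 8-cell stage. With the replicate number as a block, Sqle in NaCr against control (adjusted p = 0.0518) and Scd2 in 4-cell against late 2-cell controls (adjusted p = 0.0626) were no longer called, while Sc5d in I1394G against P300 siRNA and Dhcr7 in late against early 8-cell controls were; the counts became 2, 17, 6 and 13. The block changed no other call among the 30 genes.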
